A study of Homo sapiens with 6 samples.

Results

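RAB genes encode small GTPases that mark membranes inside the cell and direct vesicle traffic between them. Here they were taken as every row of the deposited expression tables whose gene symbol is RAB, a number and at most 1 further letter, whatever its values. The rule gave 63 of 20026 genes, and 46 of them passed the filter on low values, at least 0.5 FPKM in at least 2 libraries, and were tested. FPKM expresses the fragments sequenced from a gene relative to its transcript length and to the depth of the library. The RNA came from HCT116, a human colon carcinoma cell line, in 3 groups of stable cells with 2 libraries each. HCT116 cells over-expressing TEAD4 K178R, a mutant written as an arginine in place of a lysine, are called K178R. HCT116 cells over-expressing wild type TEAD4 are called wild type, and HCT116 cells labelled control are the third group. TEAD4 binds DNA as the partner of the Hippo pathway coactivators.

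A RAB protein switches between a GTP-bound and a GDP-bound state. Exchange factors turn it on, GTPase activating proteins turn it off, effectors bind the GTP-bound form, and a lipid anchor added by RAB geranylgeranyl transferase holds it on the membrane until a GDP dissociation inhibitor extracts it. Each compartment carries its own RAB proteins, and epithelial cells use RAB25 and RAB11A at their apical recycling endosomes and the RAB27 and RAB3 groups in regulated secretion.

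The labels do not say which promoter or vector drove TEAD4, or whether each line was a clone or a pool. They do not say what the control cells carried, beyond the letters PQ in the titles, whose meaning is not spelled out. Nor do they state that the libraries within a group were grown as separate cultures. The p-values therefore set group differences against the spread within groups of these particular samples, which may be technical only. They may then be too small for a statement about the cell lines. For wild type replicate 2 the genotype field names TEAD5 while the title names wild type TEAD4, and the title was followed. TEAD4 stood at 71.2 and 72.3 FPKM in K178R libraries, 86.4 and 84.4 FPKM in wild type libraries and 16.6 and 17.5 FPKM in control libraries, so all TEAD4 libraries lay above both controls. The K178R mean was 0.840 times the wild type mean (log2 -0.25). Between these groups the mutation and the TEAD4 level cannot be told apart. Of 7 epithelial markers 5 were tested, with EPCAM at 146 to 153 FPKM in all 6 libraries, while VIL1 and CDH17, markers of intestinal epithelium, reached at most 0.0293 FPKM. The summed epithelial markers were 2848 to 2881 FPKM in K178R, 1792 to 1846 in wild type and 2631 to 2677 in control libraries. Mostly KRT8 and KRT18 differed. KRT8 averaged 1381 FPKM in K178R, 770 in wild type and 1298 in control, and KRT18 890, 457 and 691. In the same order KRT19 averaged 429, 435 and 502 FPKM and CDH1 13.1, 10.6 and 11.4. Of 5 markers each, 1 fibroblast, 2 leukocyte and 1 endothelial marker passed the filter. Fibroblast markers summed to 1.73 to 1.88 FPKM in K178R, 3.64 to 3.78 in wild type and 1.53 to 1.76 in control libraries, with COL1A2 and DCN at 0 in all. Leukocyte markers summed to 2.63 to 3.04 FPKM in K178R, 5.156 to 5.160 in wild type and 4.20 to 4.53 in control libraries, with CD3E at 0. The tested leukocyte markers did not move together. CD68 averaged 1.21 FPKM in K178R, 2.83 in wild type and 3.28 in control, and CORO1A 1.62, 2.31 and 1.05. Endothelial markers summed to 1.37 to 1.52 FPKM in K178R, 1.96 to 2.46 in wild type and 2.02 to 2.13 in control libraries. Their part in the results was not tested. In bulk RNA, fewer cells of a type and less RNA per cell cannot be told apart.

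Of the 63 RAB genes, 45 averaged at least 1 FPKM over the 6 libraries, 20 at least 10 FPKM and 14 at least 20 FPKM. RAB7A, which acts at late endosomes and lysosomes, led with 86.0 and 86.5 FPKM in K178R, 95.1 and 91.5 in wild type and 89.5 and 88.6 in control libraries. RAB1B, which acts between the endoplasmic reticulum and the Golgi, came next with 65.0 and 66.3 FPKM in K178R, 77.8 and 75.0 in wild type and 66.3 and 68.2 in control libraries. Then came RAB5C of early endosomes, RAB1A, the exocytic RAB10 and RAB25, all between 42.2 and 61.9 FPKM in every library. RAB25, the epithelial RAB, had 51.6 and 49.3 FPKM in K178R, 52.8 and 50.8 in wild type and 42.2 and 49.5 in control libraries, and was not called in any comparison. Along the order of mean levels of the 46 tested genes, the library values of neighbours overlapped in 37 of 45 pairs, so the order holds only coarsely. RAB7A lay above RAB1B and RAB1B above RAB5C in every library.

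**Figure D1:**
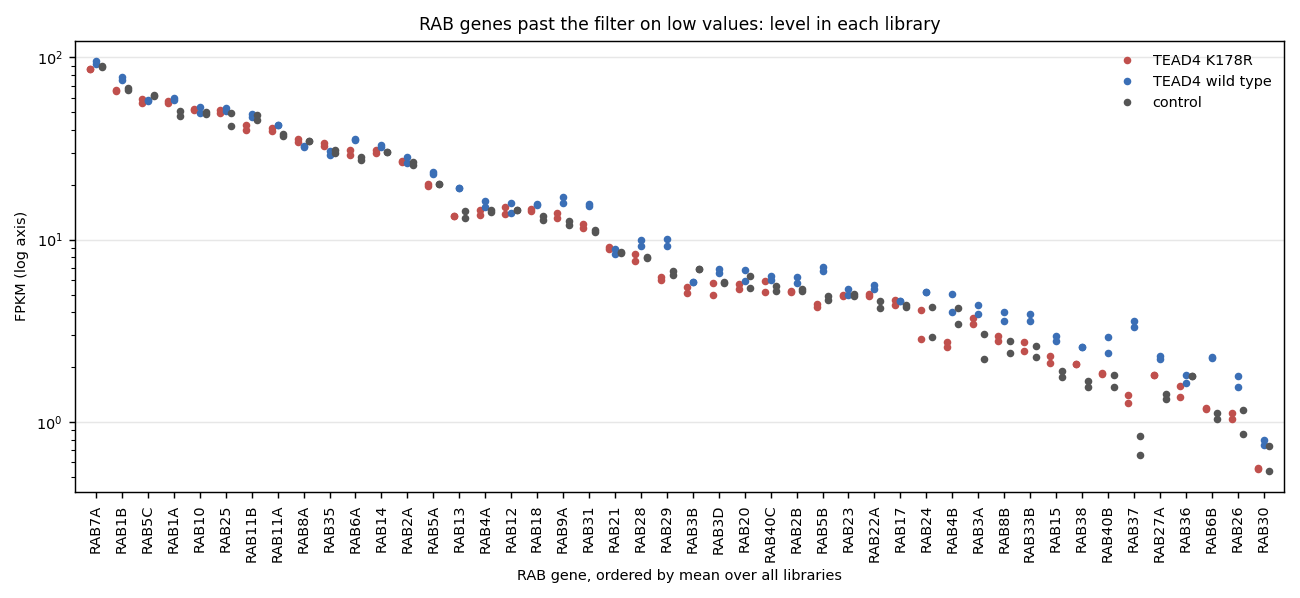
Level of each of the 46 tested RAB genes in FPKM (log axis), with 1 point per library, in red for K178R, blue for wild type and dark grey for control, and genes ordered by their mean. RAB7A stands highest, and wild type points stand above the others mainly on the right of the order, as for RAB37 at 3.58 and 3.33 FPKM.

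The 250 bases before the gene start are shown for 4 of the genes that were called in at least 1 comparison and hold a motif. The motifs are a 6-letter core of TEAD factors (GGAATG or its reverse complement CATTCC) and the 7-letter AP-1 motif (TGACTCA or TGAGTCA). The AP-1 motif is the site of JUN and FOS dimers and often lies near TEAD sites. Windows come from RefSeq (GRCh38.p14), are written 5′ to 3′ on the strand of the gene, and have the motif in capitals, with the window that holds it shown where a gene has several starts. RAB27A lies at chr15:55319124-55319373 on the minus strand, RAB13 at chr1:153985394-153985643 on the minus strand, RAB5B at chr12:55973699-55973948 on the plus strand and RAB3B at chr1:51990701-51990950 on the minus strand.
RAB27A: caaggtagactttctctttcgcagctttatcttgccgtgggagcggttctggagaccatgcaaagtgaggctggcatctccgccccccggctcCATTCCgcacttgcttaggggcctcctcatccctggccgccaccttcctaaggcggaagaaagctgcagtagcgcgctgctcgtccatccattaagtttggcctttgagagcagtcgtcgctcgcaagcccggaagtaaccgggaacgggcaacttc
RAB13: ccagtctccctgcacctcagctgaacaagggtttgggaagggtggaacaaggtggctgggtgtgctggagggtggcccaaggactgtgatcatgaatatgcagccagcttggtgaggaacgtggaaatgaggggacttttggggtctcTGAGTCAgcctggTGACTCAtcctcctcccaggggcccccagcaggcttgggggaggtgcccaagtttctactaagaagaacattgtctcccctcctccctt
RAB5B: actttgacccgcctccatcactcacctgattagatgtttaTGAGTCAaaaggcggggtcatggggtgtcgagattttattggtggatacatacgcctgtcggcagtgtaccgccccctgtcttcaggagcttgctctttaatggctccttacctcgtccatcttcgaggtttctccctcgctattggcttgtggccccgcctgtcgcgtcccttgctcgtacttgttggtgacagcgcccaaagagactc
RAB3B: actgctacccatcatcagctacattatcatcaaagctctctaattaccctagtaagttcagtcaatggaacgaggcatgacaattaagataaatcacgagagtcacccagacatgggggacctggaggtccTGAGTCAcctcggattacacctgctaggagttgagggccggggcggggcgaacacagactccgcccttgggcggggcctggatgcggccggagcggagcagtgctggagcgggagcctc
The TEAD motif of RAB27A begins 157 bases before the start, the AP-1 motifs of RAB13 at 102 and 89 bases, that of RAB5B at 210 bases and that of RAB3B at 119 bases. The first 3 genes rose in wild type cells and RAB3B fell in both TEAD4 groups. In the table, 50 of the 63 RAB genes had windows, 71 in all. The TEAD motif was found on either strand in 6 of the 71 windows (8.45%), against 11.9% of all 35116 windows, and the AP-1 motif in 5 (7.04%), against 4.20%. Besides RAB27A, the TEAD motif lay before RAB28 and RAB11B among the called genes and before RAB7B, RAB10 and RAB17, and the AP-1 motif before RAB34 and RAB27B. RAB28 rose in wild type cells, RAB11B was not called there, and RAB10 and RAB17 were not called in any comparison. No RAB window held both motifs. A match describes the letters only.

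Wild type cells were set against control cells. An effect of TEAD4 and any other difference between the stable cells of the groups cannot be told apart. RAB transcripts were mostly higher: 25 of 46 tested genes rose and 2 fell, 54.3% and 4.35%, in a comparison in which 37.6% of all 11445 tested genes were called higher and 12.2% lower. A call is an adjusted p under 0.05 by limma. The median log2 change was 0.19 over the RAB genes and 0.09 over all tested genes. The sum over all 63 genes was 883 ± 10.5 FPKM in wild type and 794 ± 8.70 in control (SD, n = 2). Since many genes moved up, the values were also rescaled by the median ratio to a common reference. After that, 19 of the same RAB genes rose and 4 fell, against 24.1% higher and 23.2% lower over all genes, with a median of 0.09 against 0.00. RAB1B, RAB2B, RAB5A, RAB11A, RAB14 and RAB28 were the calls lost, 9 members changed sign, and RAB35 and RAB5C joined the genes called lower.

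**Figure D2:**
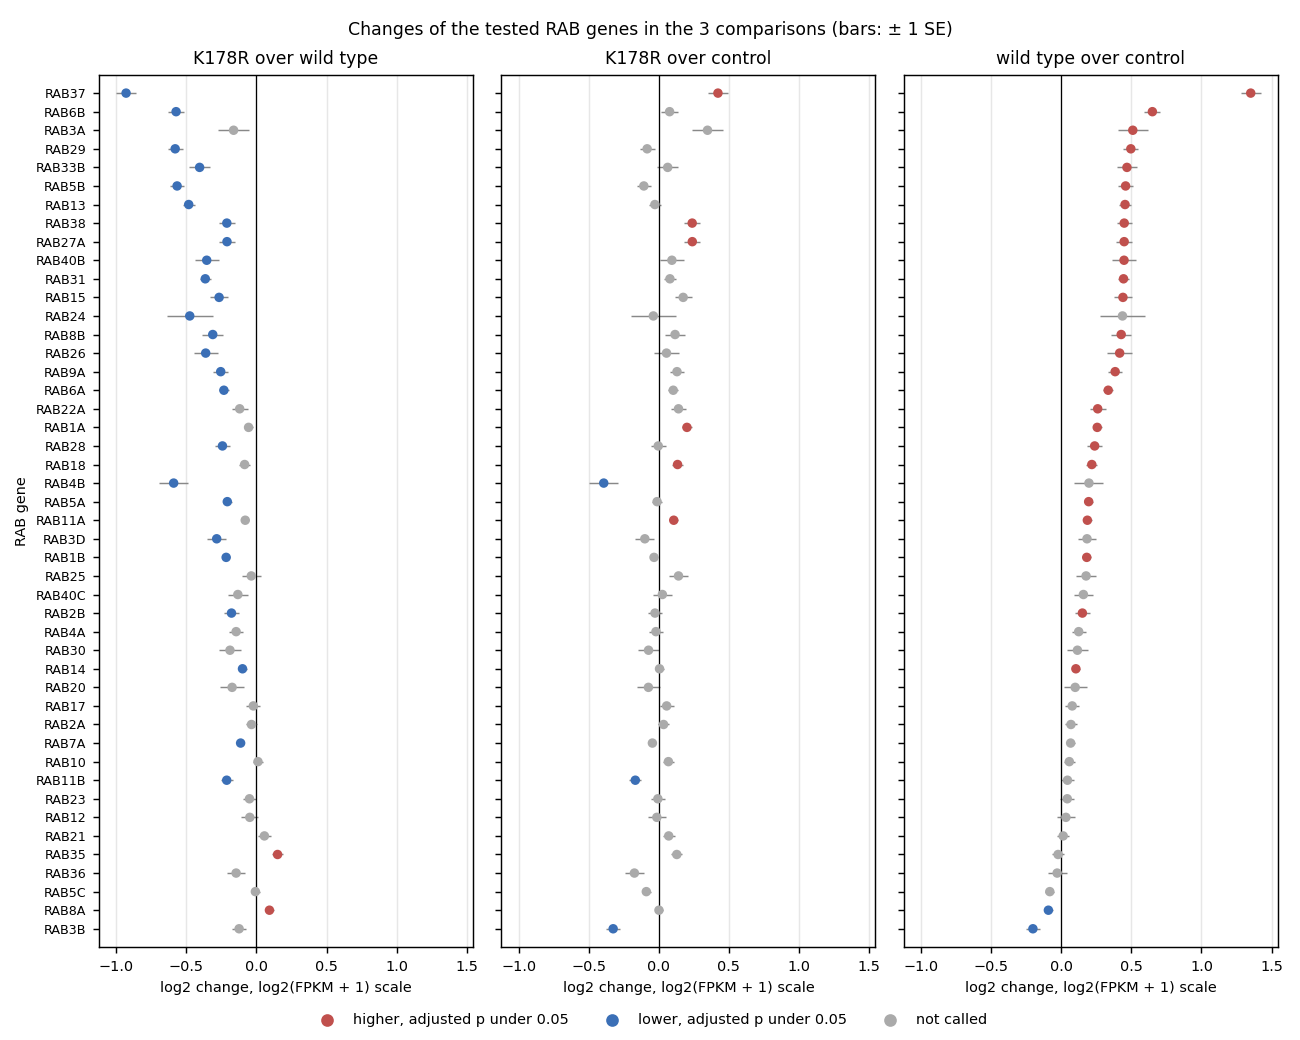
log2 change of each tested RAB gene on the log2(FPKM + 1) scale for K178R over wild type (left), K178R over control (middle) and wild type over control (right), with bars of 1 SE and red, blue and grey for higher, lower and not called. The right panel has 25 red and 2 blue points, the middle panel 6 and 3, and the left panel 2 and 25.

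Among the 10 tested RABs of exocytosis and secretion, 6 rose in wild type cells and 2 fell, on deposited and on rescaled values. Over all tested genes 37.6% rose and 12.2% fell (24.1% and 23.2% after rescaling), the background for each role. RAB37, which acts in the exocytosis of secretory granules, moved most. It had 1.28 and 1.40 FPKM in K178R, 3.58 and 3.33 FPKM in wild type and 0.661 and 0.834 FPKM in control libraries. The 3 groups did not overlap, with wild type highest and control lowest. The ratio of wild type to control means was 4.62 (log2 1.35, SE 0.07, adjusted p = 2.11e-05). RAB13, which carries cargo to the epithelial junctions, had 13.4 FPKM in both K178R libraries, 19.2 and 19.1 in wild type and 14.3 and 13.1 in control libraries. Wild type stood above all others, at 1.40 times control (log2 0.45, SE 0.04, adjusted p = 0.000242). RAB27A, which docks secretory granules at the plasma membrane, had 1.82 and 1.80 FPKM in K178R, 2.20 and 2.29 in wild type and 1.43 and 1.33 in control libraries. It rose 1.63-fold in wild type (log2 0.45, SE 0.06, adjusted p = 0.000748).

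The RAB3 group, known from synaptic and secretory vesicles, did not move as one. RAB3A had 3.45 and 3.70 FPKM in K178R, 3.89 and 4.37 in wild type and 2.20 and 3.04 in control libraries, and rose in wild type (log2 0.51, SE 0.11, adjusted p = 0.00673). RAB3B was at 5.52 and 5.09 FPKM in K178R, 5.83 and 5.89 in wild type and 6.87 and 6.92 in control libraries. Both TEAD4 groups lay below control, and RAB3B fell in wild type to 0.850 times control (log2 -0.20, SE 0.05, adjusted p = 0.0122). RAB3D, at 4.97 and 5.76 FPKM in K178R, 6.54 and 6.93 in wild type and 5.87 and 5.75 in control libraries, was not called in wild type (adjusted p = 0.0535). The second gene to fall was RAB8A, which carries Golgi vesicles to the plasma membrane and is named here after its values were seen. It had 35.5 and 34.2 FPKM in K178R, 32.4 and 32.8 in wild type and 34.8 and 34.7 in control libraries (log2 -0.09, SE 0.03, adjusted p = 0.0417). Neither gene was called lower once control replicate 2 or wild type replicate 1 was left out, and RAB3B was the 1 gene called once control replicate 1 or wild type replicate 2 was left out.

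Of the 10 tested RABs of the endoplasmic reticulum and Golgi, 7 rose in wild type cells (5 after rescaling), against 37.6% of all genes (24.1% after rescaling), and the other 3 were not called. The RAB6 group serves traffic at the Golgi and back to the endoplasmic reticulum. RAB6B had 1.19 FPKM in both K178R libraries, 2.23 and 2.28 in wild type and 1.12 and 1.03 in control libraries, with wild type alone set apart at 2.10 times control (log2 0.65, SE 0.06, adjusted p = 0.000172). RAB6A, far more abundant, had 29.1 and 30.8 FPKM in K178R, 35.1 and 35.6 in wild type and 27.5 and 28.2 in control libraries, and rose 1.27-fold (log2 0.33, adjusted p = 0.0004). RAB6C and RAB6D are near copies of RAB6A whose reads may be split between them, and the highest value of either was 0.212 FPKM. RAB33B, a Golgi RAB that also binds the autophagy protein ATG16L1, had 2.44 and 2.73 FPKM in K178R, 3.92 and 3.57 in wild type and 2.27 and 2.60 in control libraries. It rose 1.54-fold in wild type (log2 0.47, SE 0.07, adjusted p = 0.00189). RAB1A had 57.2 and 56.2 FPKM in K178R, 58.5 and 59.4 in wild type and 47.9 and 50.6 in control libraries, and rose 1.20-fold (log2 0.26, adjusted p = 0.000834).

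At the early endosome 5 of 10 tested RABs rose in wild type and the other 5 were not called. After rescaling 3 rose and 1 fell, near the 24.1% and 23.2% of all genes. The RAB5 paralogues, which drive fusion of early endosomes, differed from each other. RAB5B had 4.25 and 4.46 FPKM in K178R, 7.12 and 6.74 in wild type and 4.64 and 4.89 in control libraries, 1.45 times control in wild type (log2 0.46, SE 0.05, adjusted p = 0.000466). RAB5A had 19.7 and 20.1 FPKM in K178R, 23.5 and 22.8 in wild type and 20.1 in both control libraries. It rose 1.15-fold (log2 0.20, adjusted p = 0.00266), a call lost after rescaling. RAB5C had 59.2 and 56.2 FPKM in K178R, 58.2 and 57.8 in wild type and 61.9 and 61.0 in control libraries, and was not called (adjusted p = 0.0645). RAB31, which acts between the Golgi and endosomes, had 12.1 and 11.5 FPKM in K178R, 15.8 and 15.3 in wild type and 11.04 and 11.3 in control libraries, with wild type above all others (log2 0.44, SE 0.04, adjusted p = 0.000198).

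Of 6 tested RABs of late endosomes, lysosomes and autophagy, 3 rose in wild type, also after rescaling, and the other 3 were not called. Over all genes 37.6% rose, and 24.1% after rescaling. With so few genes the count is not read further. RAB29, which recruits the kinase LRRK2 to lysosomal and Golgi membranes, had 6.01 and 6.27 FPKM in K178R, 10.1 and 9.27 in wild type and 6.40 and 6.74 in control libraries. Wild type was set apart, at 1.47 times control (log2 0.50, SE 0.05, adjusted p = 0.000391). RAB38, known from the biogenesis of lysosome-related organelles, had 2.08 and 2.09 FPKM in K178R, 2.57 and 2.58 in wild type and 1.67 and 1.56 in control libraries. K178R lay between the other groups without overlap, and wild type was 1.59 times control (log2 0.45, SE 0.06, adjusted p = 0.000636). Among 6 recycling endosome RABs 2 rose (33.3%), below the 37.6% of all genes, and after rescaling 1 rose and 1 fell. RAB11A had 42.5 and 42.7 FPKM in wild type and 36.9 and 37.8 in control libraries and rose (adjusted p = 0.00205), a call lost after rescaling. Its close relative RAB11B was not called (adjusted p = 0.435). RAB40B, of the RAB40 group that serves as adaptors of cullin ubiquitin ligases, had 1.84 and 1.87 FPKM in K178R, 2.94 and 2.38 in wild type and 1.55 and 1.80 in control libraries and rose 1.58-fold in wild type (adjusted p = 0.00435). RAB40C was not called in any comparison.

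**Figure D3:**
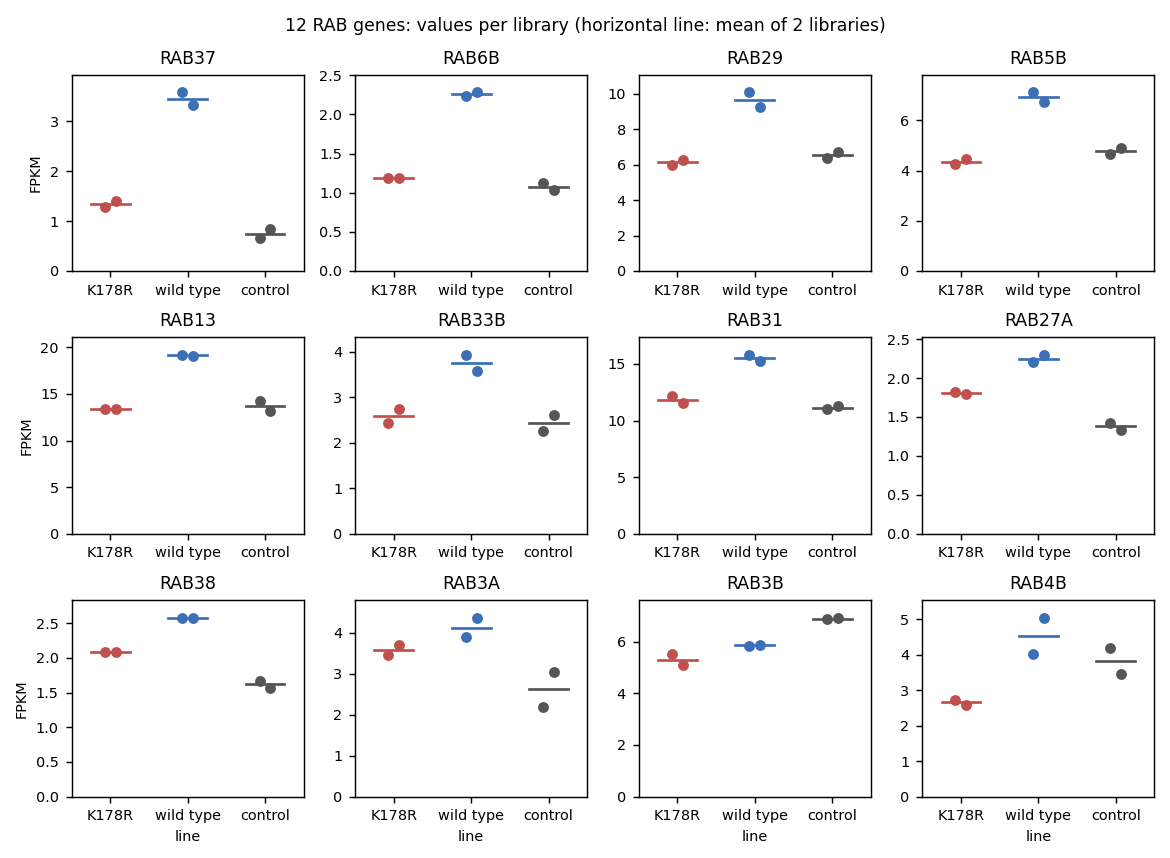
Values of 12 RAB genes in FPKM, 1 point per library, for K178R, wild type and control from left to right, with a line at the mean of 2 libraries. For RAB6B, RAB29, RAB5B and RAB13 the wild type libraries stand above K178R and control, for RAB37, RAB27A and RAB38 the K178R libraries lie between wild type and control, and RAB3B is highest in control.

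Few RAB genes differed between K178R and control cells. In K178R against control 6 of 46 rose and 3 fell, 13.0% and 6.52%, close to the 11.7% higher and 11.1% lower over all tested genes. The median log2 change was 0.03 over the RAB genes and 0.00 over all genes, and the sum over the 63 genes was 806 ± 2.77 FPKM in K178R and 794 ± 8.70 in control (SD, n = 2). RAB37 rose most, at 1.79 times control (log2 0.42, SE 0.07, adjusted p = 0.00641). RAB1A rose 1.15-fold (log2 0.20, adjusted p = 0.00581), and RAB3B fell to 0.769 times control (log2 -0.33, SE 0.05, adjusted p = 0.00391). These 3 calls held under every alternative in which the gene was tested.

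The other 6 calls in K178R against control were less stable. Of 14 alternatives, RAB11A was lost under 12 and RAB18 under 11, each including median-of-ratios scaling, RAB4B under 6, RAB38 under 5 and RAB11B under 4, and RAB27A was lost under 5 of 13. RAB27A and RAB38 stood above control in both K178R libraries (log2 0.24 for each, adjusted p = 0.0234 and 0.0209). RAB18, of the endoplasmic reticulum and lipid droplets, had 14.4 and 14.7 FPKM in K178R, 15.4 and 15.6 in wild type and 13.5 and 12.9 in control libraries (log2 0.13, adjusted p = 0.0446). RAB11A had 39.7 and 40.9 FPKM in K178R and 36.9 and 37.8 in control libraries (log2 0.11, adjusted p = 0.0424). Its relative RAB11B went the other way, with 40.1 and 42.6 FPKM in K178R, 49.0 and 47.2 in wild type and 48.2 and 45.1 in control libraries (log2 -0.17, adjusted p = 0.0325). RAB4B, which returns cargo rapidly from early endosomes, had 2.73 and 2.59 FPKM in K178R, 4.03 and 5.04 in wild type and 4.19 and 3.45 in control libraries (log2 -0.39, adjusted p = 0.0328). Its paralogue RAB4A, at 13.6 and 14.6 FPKM in K178R, 15.1 and 16.3 in wild type and 14.6 and 14.1 in control libraries, was not called in any comparison. The number of RAB genes called higher was 2, RAB37 and RAB1A, when control replicate 1, K178R replicate 1 or K178R replicate 2 was left out. The number called lower was 1 when control replicate 1 or K178R replicate 1 was left out, and 2 without K178R replicate 2.

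Set directly against wild type, K178R cells had lower levels of 25 of the 46 tested RAB genes and higher levels of 2, 54.3% and 4.35%. Over all tested genes 34.5% were called lower and 10.4% higher in K178R. The median log2 change was -0.18 over the RAB genes and -0.08 over all genes. After rescaling, 17 RAB genes were lower and 3 higher, against 21.0% and 21.0% of all genes, and the medians were -0.10 and 0.00. The wild type libraries enter this comparison and the one of wild type with control, so the calls of the pair are not independent and their overlap is not read.

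RAB37 differed most, at 0.387 times wild type in K178R (log2 -0.93, SE 0.07, adjusted p = 0.000166). RAB4B was at 0.587 times wild type (log2 -0.59, SE 0.10, adjusted p = 0.00357), with K178R below both other groups. RAB29 was at 0.635, RAB6B at 0.527 and RAB5B at 0.629 times wild type (log2 -0.58, -0.57 and -0.57, adjusted p = 0.00032, 0.000412 and 0.000305). RAB13 was at 0.701 and RAB31 at 0.762 times wild type, and RAB33B at 0.690. None of these 6 genes was called between K178R and control. RAB24, linked to autophagy, had 2.84 and 4.11 FPKM in K178R, 5.14 and 5.18 in wild type and 4.28 and 2.92 in control libraries. Its libraries spread widely in K178R and control, and its call (log2 -0.48, SE 0.16, adjusted p = 0.0473) was lost under 8 alternatives. RAB26 of secretory granules, at 1.04 and 1.12 FPKM in K178R, 1.56 and 1.78 in wild type and 0.856 and 1.16 in control libraries, was lower in K178R (log2 -0.36, adjusted p = 0.013), a call lost without wild type replicate 2 or without K178R replicate 1. Among the most abundant members RAB1B was at 0.859 and RAB7A at 0.924 times wild type (adjusted p = 0.00151 and 0.0139), the RAB7A call being lost after rescaling.

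The 2 genes higher in K178R than in wild type, named after their values were seen, differed by little. RAB35, which acts in fast recycling, had 33.8 and 32.8 FPKM in K178R, 30.8 and 29.1 in wild type and 29.7 and 31.1 in control libraries (log2 0.15, SE 0.04, adjusted p = 0.02). RAB8A was at 1.07 times wild type (log2 0.09, adjusted p = 0.0441). Neither was called without wild type replicate 2 or without K178R replicate 1, and RAB8A was lost with any library left out. Without K178R replicate 1, 15 of the 25 genes called lower were still called, and without wild type replicate 2, 17 were.

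**Figure D4:**
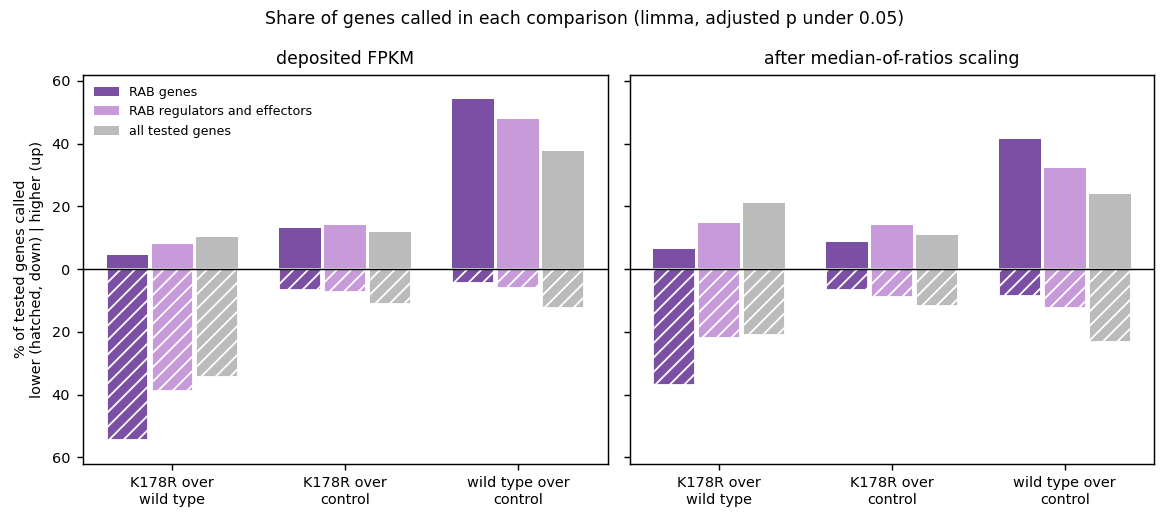
Percentage of tested genes called higher (up) and lower (hatched, down) for RAB genes (46 tested), RAB regulators and effectors (136 tested) and all 11445 tested genes, on deposited FPKM (left) and after median-of-ratios scaling (right), for K178R over wild type, K178R over control and wild type over control. Rescaling brings the shares of all genes to 24.1% higher and 23.2% lower in wild type over control, and the RAB shares keep more higher than lower calls.

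Of the 20 RAB genes averaging at least 10 FPKM, 10 rose and 1 fell in wild type over control, against 35.3% and 19.9% of the 4556 genes at that level, with a median log2 change of 0.15 against 0.05. After rescaling 6 rose and 3 fell, against 18.8% and 37.6%. Of the 26 tested RAB genes under 10 FPKM, 15 rose and 1 fell (57.7% and 3.85%), against 39.2% and 7.19% of 6889 genes, with a median of 0.34 against 0.13. In K178R against wild type, the more abundant RAB genes counted 9 lower and 2 higher, against 37.1% and 15.01% of genes at that level. After rescaling 6 were lower and 2 higher, with a median of 0.00 and 10 changes in each direction. Over all tested genes, whatever their level, 21.0% were then lower and 21.0% higher. The less abundant counted 16 lower (61.5%, against 32.8% of genes at that level), with the other 10 not called. The counts under 10 FPKM, in both comparisons, are on deposited values and not on rescaled ones. By role, the Golgi and endoplasmic reticulum RABs summed to 206 FPKM in K178R, 229 in wild type and 196 in control on average, and the exocytic RABs to 122 in K178R, 132 in wild type and 119 in control.

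The 17 untested members were low in all libraries. RAB32, RAB40A, RAB41 and RAB42 were listed at 0 everywhere, and the highest value among the rest was 0.489 FPKM, for RAB43. RAB33A was above 0 in control replicate 2 alone and RAB3C never passed 0.00511 FPKM. RAB27B, the paralogue of RAB27A, had 0.287 and 0.247 FPKM in K178R, 0.478 and 0.485 in wild type and 0.251 and 0.284 in control libraries. In a fit without the filter RAB27B was higher in wild type than in control (log2 0.22, adjusted p = 0.00488) and fell in K178R relative to wild type (log2 -0.23, adjusted p = 0.00644). On the log2(FPKM + 1) scale such changes at low levels are understated.

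Exons of 25 of the 46 tested RAB genes share bases with another gene in GENCODE 29, and use of strand in the counting is not given, so reads there may belong to either gene. RAB24 shares 926 bases with MXD3 and RAB13 shares 682 bases with AL358472.6, and RAB4B shares 1076 bases with the readthrough gene RAB4B-EGLN2. RAB6B shares 381 bases with SRPRB on the other strand, and RAB33B shares 694 bases with an antisense gene. RAB37 shares 17 bases with an antisense gene. RAB29, RAB31, RAB38 and RAB3B share none.

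The proteins that switch, anchor and read the RABs were followed in a list of 148 genes, 136 of them tested. In wild type against control 65 rose and 8 fell, 47.8% and 5.88% against 37.6% and 12.2% of all tested genes, with a median log2 change of 0.16 against 0.09. In K178R against control 19 rose and 10 fell, 14.0% and 7.35% against 11.7% and 11.1%. In K178R against wild type 53 were lower and 11 higher, 39.0% and 8.09% against 34.5% and 10.4%. After rescaling, 44 were higher and 17 lower in wild type against control, 32.4% and 12.5% against 24.1% and 23.2% of all tested genes. In K178R against control 19 were then higher and 12 lower, 14.0% and 8.82% against 11.03% and 11.7%. In K178R against wild type 30 were then lower and 20 higher, 22.1% and 14.7% against 21.0% and 21.0%. The share lower in this last comparison was thus near that of all genes. All changes of the named regulators passed the test at an adjusted p under 0.05. Of 47 exchange factors 21 rose (44.7%) and 1 fell in wild type. After rescaling 11 rose (23.4%) and 5 fell, and 24.1% of all genes rose. SH3BP5, an exchange factor of RAB11, had 6.71 and 6.99 FPKM in K178R, 8.23 and 8.59 in wild type and 4.65 and 4.79 in control libraries, and rose in both TEAD4 groups (log2 0.46 in K178R and 0.72 in wild type). DENND5A and RAB3IP, which activates RAB8, rose in wild type (log2 0.55 and 0.49). RIC1, part of an exchange factor of RAB6A, had 4.96 and 4.37 FPKM in K178R, 4.72 and 4.89 in wild type and 6.27 and 6.34 in control libraries. It fell in both TEAD4 groups against control (log2 -0.37 in K178R and -0.33 in wild type). RGP1, listed with RIC1 among the exchange factors, did not share this fall. RGP1 had 9.39 and 9.34 FPKM in K178R, 12.7 and 12.4 in wild type and 9.26 and 9.34 in control libraries. Its wild type libraries stood above all others (log2 -0.39 for K178R over wild type, adjusted p = 0.000344). Of 35 GTPase activating proteins 19 rose (54.3%) and 2 fell (5.71%) in wild type, and after rescaling 15 rose (42.9%) and 4 fell. TBC1D17, EVI5L and SGSM3 rose there (log2 0.63, 0.62 and 0.59) and fell in K178R relative to wild type (log2 -0.52, -0.55 and -0.59).

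Of 7 genes of prenylation and GDP dissociation, 3 rose (42.9%) and 1 fell (14.3%) in wild type, near the 37.6% and 12.2% of all genes. After rescaling 3 rose and 3 fell, beside 24.1% and 23.2% of all genes. The 2 subunits of RAB geranylgeranyl transferase went apart. RABGGTA, the alpha subunit, had 6.91 and 8.98 FPKM in K178R, 11.8 and 11.2 in wild type and 7.76 and 6.998 in control libraries (log2 0.58 in wild type over control, -0.49 in K178R over wild type). RABGGTB, the beta subunit, had 76.6 and 77.0 FPKM in K178R, 66.6 and 64.1 in wild type and 74.0 and 76.6 in control libraries (log2 -0.20 and 0.23). The wild type libraries were thus highest for one subunit and lowest for the other.

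Of 47 tested effectors 22 rose (46.8%) and 4 fell (8.51%) in wild type against control, beside 37.6% and 12.2% of all genes. In K178R against control 9 rose (19.1%) and 4 fell (8.51%), beside 11.7% and 11.1%. In K178R against wild type 12 were lower (25.5%) and 7 higher (14.9%), beside 34.5% and 10.4%. After rescaling 7 of the 47 were lower and 10 higher, beside 21.0% lower and 21.0% higher over all genes. SYTL2, which links RAB27 on granules to the plasma membrane, moved most of all listed genes. It had 26.5 and 27.6 FPKM in K178R, 22.0 and 22.5 in wild type and 4.999 and 4.37 in control libraries, 5.79 times control in K178R (log2 2.31, adjusted p = 1.01e-06) and 4.76 times in wild type (log2 2.04, adjusted p = 1.55e-06). SYTL3, a relative, had 12.3 and 12.9 FPKM in K178R, 11.1 and 11.3 in wild type and 9.14 and 8.88 in control libraries (log2 0.44 in K178R over control). SYTL1 had 2.69 and 2.79 FPKM in K178R, 4.90 and 4.95 in wild type and 2.74 and 2.51 in control libraries and was high in wild type alone (log2 0.71 over control). UNC13D, which primes granules with RAB27, had 2.82 and 2.88 FPKM in K178R, 1.85 and 1.90 in wild type and 2.77 and 3.22 in control libraries and was low in wild type alone (log2 -0.47 over control, 0.42 in K178R over wild type).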

How the data were processed

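RNA of 6 HCT116 libraries was prepared with the TruSeq RNA kit from total RNA, per the labels' protocols. The authors deposited 1 table of FPKM values per library, with 20030 rows. The submitters' processing notes name Bowtie 0.12.2 and hg18. Not given in the sources used here are the FPKM software, the gene models, the handling of shared reads and whether strand was used. The number of reads is unknown. The summed FPKM were 283195 to 305329 per library, and depth relative to control replicate 1, from the steps of low values, was 0.928 to 1.05.

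After 4 rows with repeated identifiers were left out, the 11445 genes reaching 0.5 FPKM in 2 or more libraries were transformed to log2(FPKM + 1), which understates changes of low genes. A limma-trend model (limma 3.58.1, R 4.3.3) with 1 mean per group was fitted over the 6 libraries together, without covariates or added scaling, and the procedure was tested on simulated data. Tests were two-sided, with Benjamini-Hochberg adjustment over all tested genes of a comparison. Ratios are of mean FPKM. Other scalings, filters, pseudocounts, designs and left-out libraries were tried.

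The members and the lists of roles, regulators and markers were chosen with earlier results of these data known. RAB6D was placed in a role after the files were seen. The text gives values for TEAD4, up to 10 called members with the largest change per comparison, the 6 most abundant members and paralogues of the called ones, and of the regulators up to 4 per list and comparison. Promoter windows and exon overlaps come from RefSeq (GRCh38.p14) and GENCODE 29, not from the build of the files.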

Additional observations from a re-analysis of the deposited data

How the results depend on the processing

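Of 29 named RAB calls, 21 held under each of 14 alternatives in which the gene was tested and none changed sign. The calls lost are named with their genes, and the cause was not tested. For RAB genes, the number lower in wild type over control (2) was 4 after median-of-ratios scaling, 1 with the replicate block and 0 with the control libraries averaged. In K178R over control, the number higher (6) was 2 with controls averaged, and the number lower (3) was 1 without the filter and 1 with controls averaged. In K178R over wild type, the number higher (2) was 1 with the replicate block, with controls averaged and with only the groups compared. Over all tested genes in wild type over control, 4309 higher became 2756 and 1402 lower became 2656 after median-of-ratios scaling, with 2162 lower after upper-quartile scaling. In K178R over control, controls averaged gave 658 higher against 1342 and 577 lower against 1268. In K178R over wild type, median-of-ratios scaling gave 2402 higher and upper-quartile scaling 1951, against 1187, and median-of-ratios scaling gave 2408 lower against 3952. For regulators and effectors in wild type over control, 8 lower became 17 after median-of-ratios scaling and 4 with controls averaged. In K178R over control, 19 higher became 12 without the filter and 8 with controls averaged, and 10 lower became 3 and 1. In K178R over wild type, 11 higher became 20 after median-of-ratios and 17 after upper-quartile scaling, and 53 lower became 30 and 33.

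With 1 library left out, the lone library of a group is assumed to vary like the others. RAB genes then numbered 23 to 26 higher and 0 to 3 lower in wild type over control, 2 to 4 higher and 1 to 3 lower in K178R over control, and 0 to 1 higher and 15 to 24 lower in K178R over wild type. All tested genes numbered 3219 to 4197 higher and 992 to 1336 lower, 732 to 1266 higher and 635 to 1229 lower, and 793 to 1098 higher and 2934 to 3771 lower in these comparisons, in the same order. Regulators and effectors numbered 46 to 64 higher and 3 to 8 lower, 7 to 18 higher and 1 to 9 lower, and 5 to 11 higher and 38 to 50 lower, again in that order.

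Replicate numbers 1 and 2 occur in every group, but nothing says that they pair the libraries. Deviations of same-numbered libraries from their group means correlated at 0.0051 between wild type and control, -0.0439 between K178R and control and 0.0349 between K178R and wild type, over 4556 genes that are not independent. With the replicate block, 26 RAB genes were higher and 1 lower in wild type over control, 5 higher and 2 lower in K178R over control, and 1 higher and 25 lower in K178R over wild type.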
